A study of Mus musculus with 8 samples.

Results

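The 5 collagen VI chain genes Col6a1, Col6a2, Col6a3, Col6a5 and Col6a6 were followed in mouse quadriceps, as the rows of a gene count table that carry these symbols. They are 5 of 35494 gene symbols in the table and 5 of the 14112 genes with enough counts to be tested. Quadriceps muscle came from 8 wild-type male C57BL/6 mice that were 8 weeks old and group-housed, with assignment to the groups at random. The scMC38 group (n = 4) received subcutaneous MC38 cells, a colorectal cancer line of the mouse, 1 M cells per animal. The control group (n = 4) received the same volume of PBS by the same route. Muscle was taken at day 28 and mRNA was sequenced in bulk, with 1 library per mouse. The comparison asks which muscle mRNAs change when this tumour is carried, in a model that the series title describes as mild cachexia. The labels give no litter, cage or day of RNA isolation.

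Collagen VI is an extracellular collagen whose basic unit is a heterotrimer of the α1 chain, the α2 chain and a long chain, usually α3. The trimers assemble inside the cell into dimers and tetramers, which are secreted and join end to end into beaded microfilaments around the muscle fibre, next to the basement membrane. In muscle these chains are made mainly by interstitial fibroblasts and not by the fibres. Mutations in the human genes for α1, α2 and α3 cause Ullrich congenital muscular dystrophy and Bethlem myopathy. The chains α5 and α6 resemble α3 and can take its place in the trimer. The C-terminal fragment of α3 is released as the signalling peptide endotrophin.

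Each chain holds a stretch in which glycine recurs at a fixed spacing, the Gly-X-Y repeat that lets chains wind into a triple helix. The start of the longest uninterrupted repeat in each chain's coding sequence is shown because these 5 genes share such repeats with all other collagens. The length of this longest run also differs between the chains. The sequences were taken from the GENCODE M21 transcript with the longest open reading frame, 5′ to 3′. Capitals mark the glycine codon (GGN) that opens each Gly-X-Y triplet, and a glycine codon at X or Y is in lower case.
Col6a1, codons 256 to 516: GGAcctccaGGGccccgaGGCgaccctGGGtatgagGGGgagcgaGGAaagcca
Col6a2, codons 271 to 531: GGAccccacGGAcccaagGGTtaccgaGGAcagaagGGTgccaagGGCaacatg
Col6a3, codons 2165 to 2299: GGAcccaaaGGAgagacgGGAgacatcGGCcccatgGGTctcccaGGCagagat
Col6a5, codons 1442 to 1552: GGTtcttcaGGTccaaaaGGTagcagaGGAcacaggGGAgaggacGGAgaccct
Col6a6, codons 1391 to 1516: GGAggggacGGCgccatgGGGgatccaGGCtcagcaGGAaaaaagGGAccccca
The codon ranges are those of the whole uninterrupted repeat, of which the first 54 bases are printed. This longest run held 87 triplets in Col6a1 and in Col6a2, 45 in Col6a3, 42 in Col6a6 and 37 in Col6a5. Repeats beyond a break were not counted, so these are not lengths of the whole collagen part. The open reading frames held 1025 codons for Col6a1, 1034 for Col6a2, 3284 for Col6a3, 2640 for Col6a5 and 2265 for Col6a6. The Col6a3 model ends without a stop codon, so its frame may be longer than given.

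Sequence sharing sets how well the chains' counts can be told apart. Runs of 31 bases shared with the transcripts of any other gene numbered 0 for Col6a1, 0 for Col6a3 and 8 at most for Col6a2 (0.0964% of its runs). Col6a5 and Col6a6 shared 375 such runs with each other, 3.98% of those of Col6a5 and 4.10% of those of Col6a6. The RefSeq annotation places Col6a1 and Col6a2 next to each other on mouse chromosome 10, and Col6a6, Col6a5 and Col6a4 in a row on chromosome 9, with Col6a3 alone on chromosome 1.

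Total counts per library were between 52.9 and 61.7 M in scMC38 and between 50.5 and 62.1 M in controls. Summed markers of muscle fibres such as Ckm and Acta1, in counts per M (CPM, scaled by TMM), were alike in range, at 97784 to 141292 in scMC38 and 96663 to 141912 in controls. The libraries scMC38 1 and scMC38 3 stood apart, with mRNA of bone-forming cells (49.8 and 259 CPM over 8 markers) and of marrow granulocyte progenitors (45.5 and 398 CPM over 5 markers). The same sums were 1.25 to 3.01 and 0.151 to 0.355 CPM in the other scMC38 libraries, and at most 3.06 and 0.280 CPM in controls. Mitochondrially encoded genes took 14.4% to 18.9% of counts in scMC38 libraries and 24.3%, 29.7%, 16.3% and 16.8% in control 1 to 4, so that control 1 and control 2 stood apart as well. Without control 1 and control 2 edgeR called 0 genes in the whole table, so calls are given below without scMC38 1 and scMC38 3, where these changed them.

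All 5 collagen VI chains had lower mean mRNA in the muscle of scMC38 mice than in that of control mice. The decrease passed the test for Col6a1 and Col6a2, which were at 43.2% and 37.5% of their control mean. For Col6a3, the long chain of the usual trimer, scMC38 libraries also lay below all controls, but the change missed the threshold. For the low-level chains Col6a5 and Col6a6 the groups overlapped. Of the 5 chains, 2 were called lower at an adjusted p under 0.05 by edgeR's quasi-likelihood test, where 0.468% of all 14112 tested genes were called lower. Of the 5, 3 had all scMC38 libraries below all controls, where 6.45% of all tested genes did. The median log2 fold change of the 5, scMC38 minus control, was -1.21, against 0.00087 for all tested genes. Col6a5 is among the 5 because its counts in controls passed the low-count filter. With a filter of at least 1 CPM in 4 libraries, which drops Col6a5, the median of the 4 chains left was -1.14.

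Col6a1, the α1 chain that every collagen VI trimer contains, measured 53.3, 32.3, 40.2 and 24.8 CPM in scMC38 1 to 4 and 84.2, 68.7, 93.8 and 101.8 CPM in control 1 to 4. The highest scMC38 library, scMC38 1, lay below the lowest control, control 2. Col6a1 fell by 1.21 on the log2 scale (SE 0.23, adjusted p = 0.0485 by edgeR), with means of 37.7 ± 12.2 CPM in scMC38 and 87.1 ± 14.3 CPM in controls (SD, n = 4 each). The call sat at the threshold: with 1 library left out in turn, Col6a1 was called only without scMC38 1, and the adjusted p ran between 0.0408 and 0.131.

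Col6a2, the α2 chain and the other obligatory partner, measured 45.5, 27.2, 38.1 and 23.6 CPM in scMC38 1 to 4 and 82.7, 76.0, 91.4 and 107.8 CPM in control 1 to 4. The groups did not overlap, and scMC38 2 and scMC38 4 were the lowest of the 8 libraries, as they were for Col6a1. Col6a2 fell by 1.41 on the log2 scale (SE 0.21, adjusted p = 0.0299 by edgeR), with means of 33.6 ± 10.1 CPM in scMC38 and 89.5 ± 13.8 CPM in controls (SD, n = 4 each). Among the genes that were lower in scMC38, Col6a2 ranked 18th and Col6a1 60th by p. The Col6a2 call held without scMC38 1, scMC38 3 or scMC38 4, and was lost without scMC38 2 or any 1 of the controls, with adjusted p between 0.0347 and 0.0963 over these fits.

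Col6a3, the long α3 chain, measured 34.4, 25.4, 25.9 and 19.99 CPM in scMC38 1 to 4 and 49.1, 42.2, 53.9 and 77.3 CPM in control 1 to 4. All scMC38 libraries lay below all controls, and control 4 stood highest. The log2 fold change was -1.07 (SE 0.22) with an adjusted p of 0.0581 by edgeR, which missed the threshold, and means were 26.4 ± 5.97 CPM in scMC38 and 55.6 ± 15.2 CPM in controls (SD, n = 4 each). DESeq2 gave nearly the same log2 fold change, -1.07, with an adjusted p of 0.000107. By DESeq2, 4 of the 5 chains were called lower, Col6a5 being the exception, where 3.88% of all genes were.

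**Figure D1:**
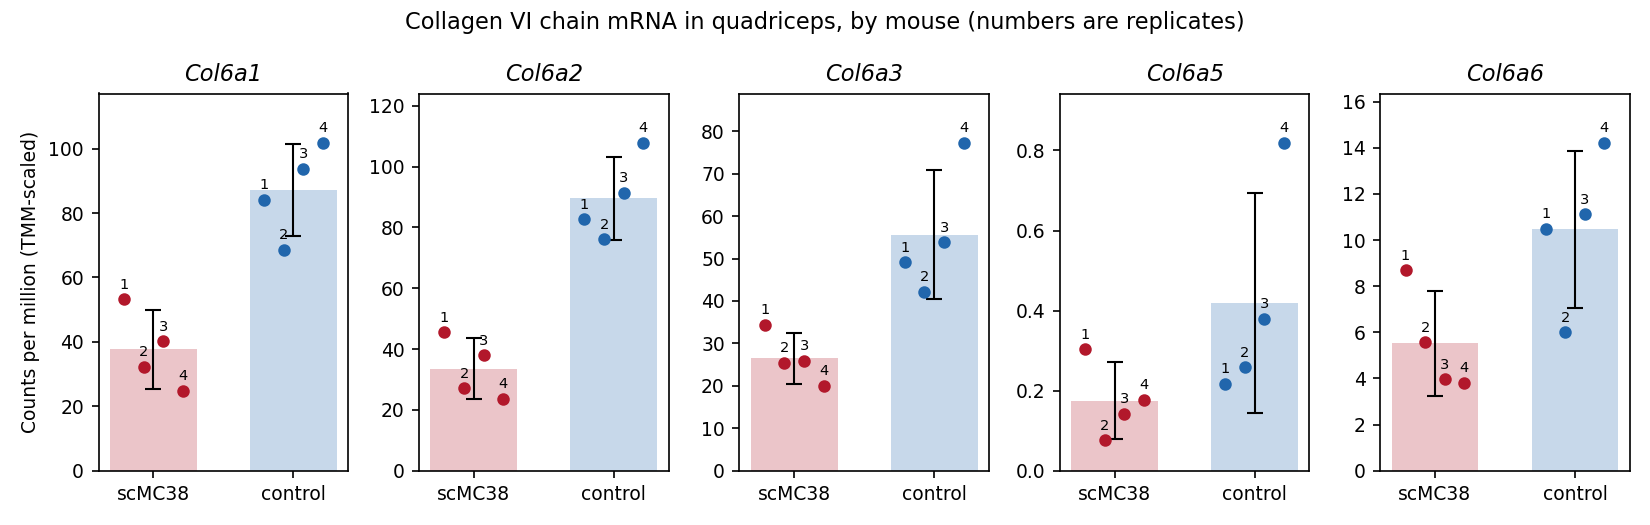
CPM of each collagen VI chain (y axis, linear, its own scale in each panel) in every library, as points numbered by replicate, over bars at the group mean with SD (n = 4 each), scMC38 left of control. The scMC38 points lie below every control point for Col6a1, Col6a2 and Col6a3, and the groups overlap for Col6a5 and Col6a6.

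Col6a6, the α6 chain that can take the place of α3, measured 8.70, 5.58, 3.97 and 3.82 CPM in scMC38 1 to 4 and 10.5, 6.00, 11.1 and 14.2 CPM in control 1 to 4. The groups overlapped, because control 2 lay below scMC38 1. The log2 fold change was -0.92 (SE 0.32, adjusted p = 0.161 by edgeR), and the groups averaged 5.52 ± 2.27 CPM in scMC38 and 10.5 ± 3.39 CPM in controls (SD, n = 4 each). DESeq2 gave an adjusted p of 0.0489 for it.

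Col6a5, the α5 chain, was barely detected. The deposited estimated counts were 18.2, 4, 10 and 9 in scMC38 1 to 4 and 13.06, 14.04, 19 and 45 in control 1 to 4. Control 4 held the highest count and scMC38 2 the lowest. The log2 fold change was -1.25 (SE 0.55, adjusted p = 0.242 by edgeR), with 0.175 ± 0.0957 CPM in scMC38 and 0.419 ± 0.276 CPM in controls (SD, n = 4 each). Without control 4 alone the log2 fold change was -0.69. Its count reached 10 in all 4 controls and in 2 of the scMC38 libraries. The low-count filter scales this count to library depth, and the 4 controls were enough to pass it. Its place among the tested genes therefore rests on the control side, where its mean was higher.

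Counts of Col6a5 and Col6a6 carry a further uncertainty. In 5 of the 8 libraries at least 1 of the pair has a fractional count, and in scMC38 1, control 1 and control 2 the fractions cancel in the sum, which comes to 534, 640 and 339 whole reads (within 0.0011). How many whole reads were divided between the pair cannot be read from the table. In control 3 and control 4 the sum is not whole. The further mouse chain gene Col6a4 had 0, 0, 4 and 1 counts in scMC38 1 to 4 and 2, 2, 1 and 0 in control 1 to 4, too few to be tested.

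Levels of different chains can be compared only per transcript length. Divided by the GENCODE transcript length, Col6a1 was at 9.18 ± 2.97 CPM per kb in scMC38 and 21.3 ± 3.48 CPM per kb in controls. Col6a2 was at 8.51 ± 2.55 CPM per kb in scMC38 and 22.7 ± 3.48 CPM per kb in controls, a level that overlapped that of Col6a1 in both groups. Col6a3 followed at 2.62 ± 0.591 CPM per kb in scMC38 and 5.50 ± 1.51 CPM per kb in controls. Col6a6 came next at 0.629 ± 0.258 CPM per kb in scMC38 and 1.19 ± 0.386 CPM per kb in controls. Col6a5 was lowest, at 0.0188 ± 0.0103 CPM per kb in scMC38 and 0.0451 ± 0.0297 CPM per kb in controls. Apart from Col6a1 and Col6a2, the libraries of neighbouring chains in this order did not overlap within either group. The transcript model of Col6a3 used here has no 3′ untranslated region, so its level per kb may be set too high against the others.

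**Figure D2:**
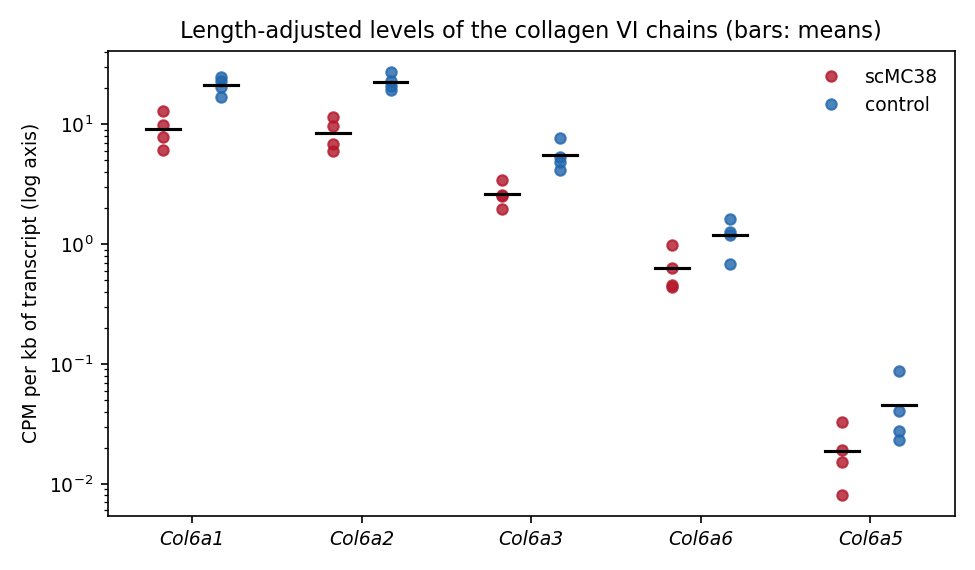
Level of each chain in CPM per kb of transcript (y axis, log scale), as points for single libraries with a black line at the group mean, scMC38 left of control. The order is Col6a1 and Col6a2 together, then Col6a3, Col6a6 and Col6a5, in both groups.

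As a share of all chain molecules per kb, Col6a1 made up 41.8% to 44.9% in scMC38 libraries and 40.4% to 43.5% in controls. Col6a2 made up 38.4% to 42.9% in scMC38 and 43.9% to 47.1% in controls, and these ranges did not overlap. Col6a3 made up 11.39% to 14.05% in scMC38 and 10.1% to 12.4% in controls. Col6a6 made up 2.01% to 3.55% in scMC38 and 1.67% to 2.63% in controls, and Col6a5 was at or under 0.143% in every library.

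Whether the chains moved by unequal amounts was tested on the ratio of each chain's count to that of Col6a1, which does not depend on library scaling. The log2 ratio of Col6a2 to Col6a1 was -0.23, -0.25, -0.08 and -0.07 in scMC38 1 to 4 and -0.03, 0.15, -0.04 and 0.08 in control 1 to 4. Every scMC38 library lay below every control, by a mean of -0.20 on the log2 scale, or 0.871-fold (two-sided exact permutation p = 0.0286, the smallest that 4 against 4 libraries can give). Adjusted over the 4 ratios tested, p was 0.114, which is the smallest adjusted p that a single separating ratio among 4 can reach here, so the correction says nothing about the size of this difference.

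The log2 ratio of Col6a3 to Col6a1 averaged -0.48 ± 0.18 in scMC38 and -0.67 ± 0.19 in controls (SD, n = 4 each, exact permutation p = 0.171, adjusted p = 0.343). That of Col6a6 to Col6a1 averaged -2.79 ± 0.37 in scMC38 and -3.11 ± 0.29 in controls (exact permutation p = 0.257, adjusted p = 0.343). That of Col6a5 to Col6a1 averaged -7.78 ± 0.68 in scMC38 and -7.85 ± 0.67 in controls (exact permutation p = 1). For these 3 ratios the groups overlapped, and unequal change was not detected with 4 mice per group.

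**Figure D3:**
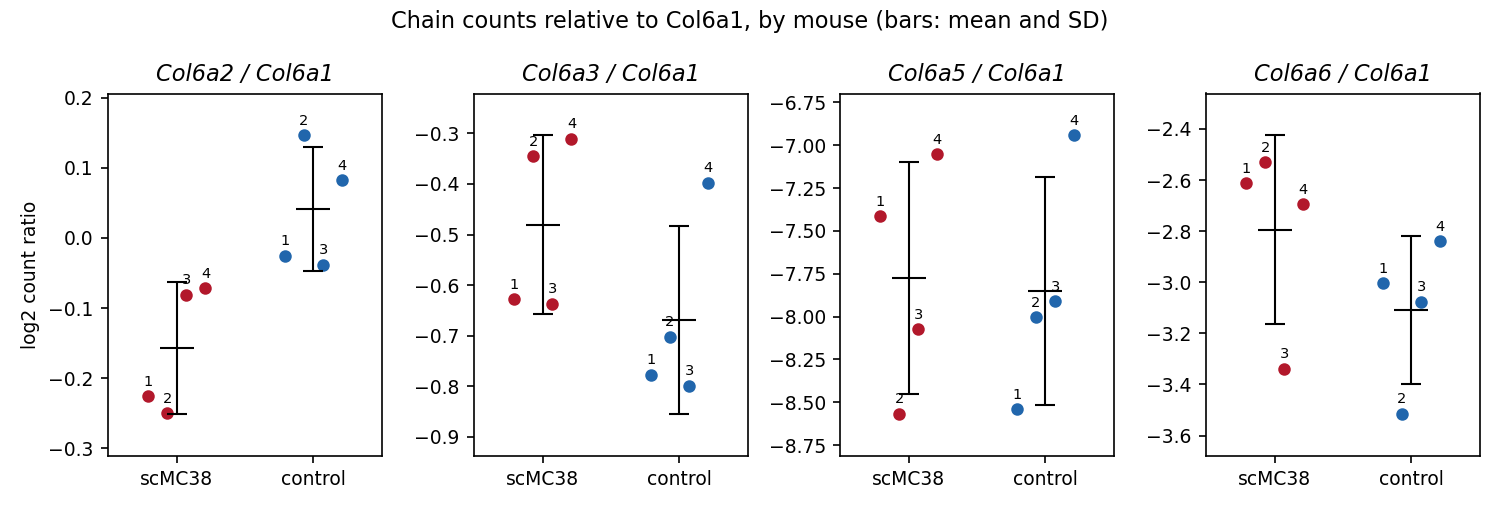
Log2 count ratio of each other chain to Col6a1 (y axis, its own scale in each panel) in every library, as points numbered by replicate with the group mean and SD (n = 4 each), scMC38 left of control. Of the 4 ratios, that of Col6a2 to Col6a1 separates the groups, by a mean of -0.20.

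The same libraries stood highest for every chain. In scMC38, library scMC38 1 was the highest for 5 of 5 chains, and in controls control 4 was the highest for 5 of 5. Summed over the 5 chains, CPM were 142, 90.5, 108 and 72.4 in scMC38 1 to 4 and 227, 193, 251 and 302 in control 1 to 4. The coefficient of variation was 32.3% in scMC38 and 16.4% in controls for Col6a1, and 29.98% in scMC38 and 15.4% in controls for Col6a2. Col6a3 varied by 22.6% in scMC38 and 27.4% in controls, Col6a6 by 41.1% in scMC38 and 32.4% in controls, and Col6a5 by 54.8% in scMC38 and 65.8% in controls.

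The pairs of libraries that stood apart affected the chains as follows. Without scMC38 1 and scMC38 3, the log2 fold change was -1.59 for Col6a1 (adjusted p = 0.0398 by edgeR) and -1.80 for Col6a2 (adjusted p = 0.0343), and for Col6a3 it was -1.27 (adjusted p = 0.0876). With scMC38 1 and scMC38 3 as the only tumour libraries, a comparison added after seeing the data, it was -0.91 for Col6a1 (adjusted p = 0.0465) and -1.11 for Col6a2 (adjusted p = 0.0221). Without control 1 and control 2 it was -1.39 for Col6a1 (adjusted p = 0.247) and -1.58 for Col6a2 (adjusted p = 0.216), in the fit that called 0 genes by edgeR, with 1605 genes at an unadjusted p under 0.05.

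**Figure D4:**
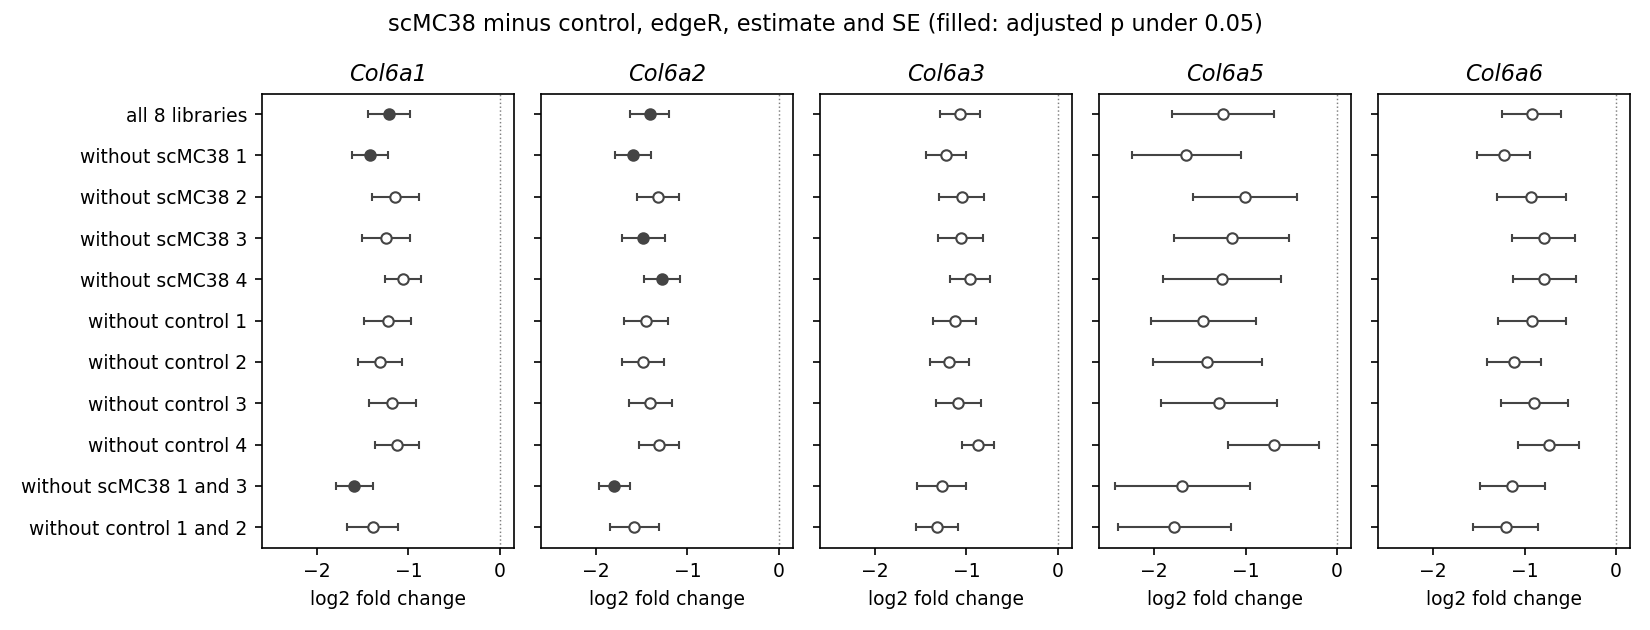
Log2 fold change of each chain, scMC38 minus control (x axis, bars are SE), in the fit to all 8 libraries and with libraries left out (rows), filled where the adjusted p by edgeR was under 0.05. All points lie below 0, and with 1 library left out Col6a5 lies between -1.65 and -0.69.

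The promoters of the chains were searched for 4 short motifs because the chains' levels had much the same order over the libraries. The RefSeq promoter table (build GRCm38.p6) holds all 5 genes, and matches on either strand were sought in the 250 bases before each start. The searched letters were TGANTCA for AP-1, GGGCGG for the GC box, CCAAT for the CCAAT box and TATAAA for the TATA box. The AP-1 motif was found in Col6a1 alone, 90 bases before the start, and 6.75% of the 32851 promoters in the table hold it. The GC box was found in Col6a2, Col6a5 and Col6a6, and 32.7% of all promoters hold it. The TATA box (12.4% of all promoters) and the CCAAT box (33.9%) were found in none of the 5, and Col6a3 held none of the 4 motifs. Below, 30 bases around matches are shown on the genes' strand, which is the minus strand, with the motif in capitals.
Col6a1, AP-1, chr10:76726116-76726145: tgctgatgctgTGACTCActcagctttgag
Col6a2, GC box, chr10:76623454-76623483: cacccgctgaccCCGCCCatccgcggggcc
Col6a2, 2 overlapping GC boxes, chr10:76623405-76623434: gagttttccaggcatCCGCCCGCCCgggac
Col6a5, GC box, chr9:105960683-105960712: gccaagggcgcaGGGCGGgagtcagcgctg
Col6a6, GC box, chr9:105828210-105828239: ccaggagtttggGGGCGGtccacgttgcag
A match is a description of the letters and no measure of binding. The second start that the table lists for Col6a2 has a GC box as well, and so does a second place before Col6a6.

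Other collagen genes were counted beside the chains. Of 12 tested collagen genes, fibrillar and of other types, edgeR called 2 lower and 0 higher. Of all tested genes, 0.468% were called lower and 0.737% higher. The median log2 fold change of the 12 collagen genes was -0.43, and -1.17 without scMC38 3, and 10 of the 12 were negative. The collagen I genes were positive with a wide spread. Col1a1 differed by 1.84 (SE 1.26, adjusted p = 0.429 by edgeR) and Col1a2 by 1.04 (SE 1.04, adjusted p = 0.596). Both were picked out after their values were seen. Col5a3, a chain of the type V collagen that associates with collagen I fibrils, fell by 1.48 on the log2 scale (SE 0.19, adjusted p = 0.0201 by edgeR), at 14.04 ± 3.70 CPM in scMC38 and 39.1 ± 5.68 CPM in controls (SD, n = 4 each). Col3a1, the chain of fibrillar collagen III, fell by 1.96 (SE 0.33, adjusted p = 0.0352), at 68.4 ± 28.4 CPM in scMC38 and 266 ± 83.4 CPM in controls. With 1 library left out, the Col5a3 call was lost without control 1, control 2 or control 3, and the Col3a1 call was kept only without scMC38 1. Without scMC38 1 and scMC38 3 both calls were lost, with Col5a3 at -1.48 (adjusted p = 0.0518 by edgeR) and Col3a1 at -2.38 (adjusted p = 0.0578), while the median of the 12 was -1.56 and all 12 were negative.

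Collagen VI made up 13.6%, 13.9%, 2.41% and 13.8% of the CPM of all 44 collagen symbols in scMC38 1 to 4 and 17.5%, 16.3%, 15.6% and 17.5% in control 1 to 4. All scMC38 libraries lay below all controls. The low share in scMC38 3 goes with a sum over all collagens of 4485 CPM there, against 524 to 1048 CPM in the other scMC38 libraries and 1182 to 1729 CPM in controls. The same library held the most bone cell mRNA, whose part in this sum was not tested.

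Receptors of collagen VI did not pass the test. Over all 14112 tested genes, 2966 had an unadjusted p under 0.05, the background for such counts in this and the following lists. Of 8 tested receptor genes, edgeR called 0, with 0 at an unadjusted p under 0.05, and DESeq2 called 0. Their median log2 fold change was -0.16. Leaving out scMC38 3 gave a median of -0.42, and leaving out scMC38 1 and scMC38 3 gave -0.52 with 8 of 8 negative. Antxr2, an anthrax toxin receptor that takes up collagen VI, measured 18.5 ± 5.81 CPM in scMC38 and 26.2 ± 3.78 CPM in controls (SD, n = 4 each), which is a difference of -0.50 on the log2 scale (SE 0.22, adjusted p = 0.241 by edgeR). The integrin chain gene Itga10 differed by 1.61 on the log2 scale (SE 0.74, adjusted p = 0.255), with 2.16, 0.454, 6.05 and 0.808 CPM in scMC38 1 to 4 and 0.452 to 1.12 CPM in controls. Without scMC38 1 and scMC38 3 its log2 fold change was -0.28.

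Among matrix partners of collagen VI, such as the proteoglycans biglycan and decorin and the matrilins, 11 of 13 could be tested, edgeR called 1 lower and 4 had an unadjusted p under 0.05. The called gene was Matn2, a matrilin that links matrix filaments, which fell by 1.096 on the log2 scale (SE 0.18, adjusted p = 0.0341 by edgeR). Matn2 measured 3.24, 2.31, 2.85 and 1.91 CPM in scMC38 1 to 4 and 5.27, 5.63, 6.14 and 5.03 CPM in control 1 to 4, and the groups did not overlap. Its call was kept only without scMC38 1 or scMC38 3 when 1 library was left out. DESeq2 called 2 lower, Matn2 and the perlecan gene Hspg2 (log2 fold change -0.29, adjusted p = 0.0444), and 1 higher, Vwa1, which encodes the matrix protein WARP (0.32, adjusted p = 0.0158). By edgeR, Vwa1 measured 24.4 ± 2.11 CPM in scMC38 and 19.6 ± 0.905 CPM in controls (SD, n = 4 each, adjusted p = 0.0889), and all scMC38 libraries lay above all controls. Hspg2 and Vwa1 were picked out after their values were seen. The median over the 11 was -0.18, between -0.32 and -0.11 with 1 library left out, and -0.52 without scMC38 1 and scMC38 3.

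Genes for collagen biosynthesis and secretion, such as prolyl and lysyl hydroxylases and the chaperone gene Serpinh1, held no call in the fit to all 8 libraries. Of 23 tested, edgeR called 0, with 6 at an unadjusted p under 0.05, while DESeq2 called 2 higher and 1 lower, and the median log2 fold change was 0.0033. Leaving out scMC38 3 gave a median of -0.18. Without scMC38 1 and scMC38 3 it was -0.30, 17 of 23 were negative and edgeR called 2 lower, the procollagen proteinase gene Bmp1 (log2 fold change -1.06, adjusted p = 0.0403) and the transport coat gene Sec24d (-0.91, adjusted p = 0.0428), both picked out after their values were seen. The smallest p were those of Colgalt1, a collagen galactosyltransferase, at 62.1 ± 2.15 CPM in scMC38 and 51.6 ± 2.05 CPM in controls (log2 fold change 0.27, adjusted p = 0.0824 by edgeR), and of the lysyl hydroxylase gene Plod1. Plod1 measured 32.0 ± 1.59 CPM in scMC38 and 38.5 ± 2.29 CPM in controls (SD, n = 4 each, log2 fold change -0.27, adjusted p = 0.0964).

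Of 7 tested genes for collagen turnover, edgeR called 0, with 2 at an unadjusted p under 0.05, and DESeq2 called 1 lower, Mmp2. Their median log2 fold change was 0.33 with all libraries, 0.12 when scMC38 3 was left out and -0.79 when scMC38 1 and scMC38 3 were. The gelatinase gene Mmp2 measured 30.6 ± 9.26 CPM in scMC38 and 53.6 ± 7.21 CPM in controls (SD, n = 4 each), which is -0.81 on the log2 scale (SE 0.21, adjusted p = 0.0933 by edgeR). Without scMC38 1 and scMC38 3, Mmp2 was called lower, at -1.23 (adjusted p = 0.0359 by edgeR). Mmp9, a gelatinase of neutrophils and osteoclasts, measured 19.6, 6.51, 232.5 and 4.18 CPM in scMC38 1 to 4 and 2.78 to 5.88 CPM in controls (adjusted p = 0.133). Of 10 tested genes of TGF-beta signalling, a pathway that induces collagen genes, edgeR called 0, with 1 at an unadjusted p under 0.05 and 0 by DESeq2, and the median was 0.12. Its receptor gene Tgfbr1 had a log2 fold change of 0.39 (adjusted p = 0.202) and the ligand gene Tgfb3 of -0.15 (adjusted p = 0.258).

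Muscle of mice that lack collagen VI is known for impaired autophagy and for mitochondria prone to open their permeability pore. Of 3 tested genes tied to that phenotype, edgeR called 0, with 1 at an unadjusted p under 0.05, and DESeq2 called 1 higher. Bnip3, a mitophagy receptor, measured 282 ± 61.0 CPM in scMC38 and 192 ± 19.3 CPM in controls (SD, n = 4 each), which is 0.55 on the log2 scale (SE 0.15, adjusted p = 0.106 by edgeR), and all scMC38 libraries lay above all controls, as they did for 6.82% of all tested genes. Ppif, which encodes the pore regulator cyclophilin D, had a log2 fold change of -0.33 (adjusted p = 0.495), and 0.19 without control 1 and control 2. These data hold no muscle that lacks collagen VI, so likeness to that phenotype was not tested.

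The cells that make collagen VI were followed by their markers. Of 16 tested markers of fibro-adipogenic progenitors and fibroblasts, 15 had a negative log2 fold change, with a median of -0.56. With 1 library left out, the median ran between -0.79 and -0.38. Over all 14112 tested genes, 49.8% were negative and 2966 had an unadjusted p under 0.05. Of the 16, edgeR called 1 lower, 8 had an unadjusted p under 0.05 and DESeq2 called 6 lower. Their summed level was 613, 480, 538 and 365 CPM in scMC38 1 to 4 and 691, 654, 722 and 805 CPM in control 1 to 4, and the groups did not overlap. The called marker, Smoc2, a secreted matricellular protein, fell by 0.70 on the log2 scale (SE 0.13, adjusted p = 0.0479 by edgeR), at 99.1 ± 17.2 CPM in scMC38 and 161 ± 12.3 CPM in controls (SD, n = 4 each). When 1 library was left out, its call was kept only without scMC38 3. The defining receptor gene Pdgfra measured 30.9 ± 6.83 CPM in scMC38 and 39.0 ± 6.41 CPM in controls (log2 fold change -0.33, SE 0.18, adjusted p = 0.321). Smoc2 and Pdgfra were picked out after their values were seen. In bulk muscle, fewer such cells and less collagen VI mRNA per cell cannot be told apart.

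Without scMC38 1 and scMC38 3, the median of these fibroblast markers was -0.83, with 3 of 16 called lower by edgeR, that of the chains was -1.59, that of the tendon cell markers -1.60 and that of the Schwann cell markers -0.98. With all 8 libraries, all 6 tested tendon cell markers had a negative log2 fold change (median -0.79, and -0.43 without control 3), with 0 called by edgeR, 3 at an unadjusted p under 0.05 and 2 called lower by DESeq2. Their summed level was 69.3 to 299 CPM in scMC38 and 184 to 520 CPM in controls. All 6 tested Schwann cell markers were negative as well (median -0.64), with 0 called by edgeR, 4 at an unadjusted p under 0.05 and 3 called lower by DESeq2, and a summed level of 43.4 to 57.7 CPM in scMC38 and 63.8 to 124.5 CPM in controls.

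With all 8 libraries, markers of other cells had medians nearer to 0 or above it, and several depended on single libraries. This order did not always hold with 1 library left out. Without scMC38 4 the fibroblast median was -0.38, that of smooth muscle cells and pericytes -0.56 and that of satellite cells -0.55. In the fit to all 8 libraries, the median log2 fold change was -0.12 for endothelial cells, -0.45 for smooth muscle cells and pericytes, -0.08 for adipocytes, -0.49 for satellite cells and 0.08 for muscle fibres. With 1 library left out, it ran between -0.23 and 0.03 for endothelial cells (above 0 only without control 2), between -0.57 and -0.38 for smooth muscle cells and pericytes, between -0.55 and -0.41 for satellite cells and between -0.03 and 0.17 for muscle fibres. The adipocyte median was 1.29 without control 4, with 0 of 6 negative, and between -0.42 and 0.19 without any other single library. It was 0.93 for macrophages and 8.19 for neutrophils, whose 8 markers summed to 431, 10.2, 3906 and 31.7 CPM in scMC38 1 to 4 and 0.728 to 7.22 CPM in controls. The 8 macrophage markers summed to 335, 215, 524 and 111 CPM in scMC38 1 to 4 and 98.6 to 138 CPM in controls. Without scMC38 3 the macrophage median was 0.57 and the neutrophil median 5.26, and without scMC38 1 and scMC38 3 they were 0.12 and 1.87. For each of these 7 lists edgeR called 0 genes, with 2 endothelial, 4 smooth muscle and pericyte, 0 adipocyte, 3 satellite cell, 0 fibre, 4 macrophage and 8 neutrophil markers at an unadjusted p under 0.05. DESeq2 called 1 endothelial and 3 smooth muscle and pericyte markers lower, 1 satellite cell marker lower and 1 higher, and 0 adipocyte and fibre markers, while 8 of 8 neutrophil markers and 3 of 8 macrophage markers were called higher by DESeq2, which called 6.14% of all genes higher. All 5 tested markers of red cell precursors were called higher by edgeR, with a sum of 993 to 1745 CPM in scMC38 and 295 to 653 CPM in controls. That count rests on all 8 libraries together. It was 0 without scMC38 1, scMC38 3, control 1, control 3 or control 4, 1 without scMC38 4, 2 without scMC38 2 or control 2, and 1 without scMC38 1 and scMC38 3, while each tested marker stayed positive. No listed marker was at 0 in all libraries. The part of these cells in the lower collagen VI mRNA was not tested.

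**Figure D5:**
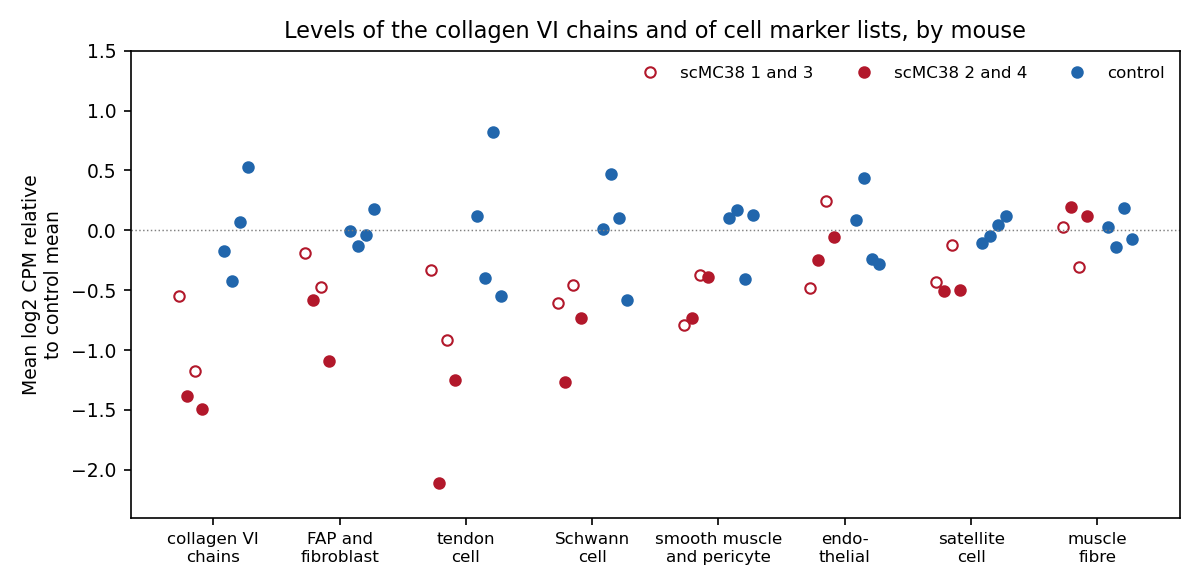
Mean log2 CPM of the tested genes of each list relative to the control mean (y axis), as a point for each library, with scMC38 left of control and open circles for scMC38 1 and scMC38 3, for the collagen VI chains and 7 lists of cell markers (FAP stands for fibro-adipogenic progenitor). Every scMC38 point of the chains, the fibroblast markers and the satellite cell markers lies below all control points of the same list. The satellite cell markers were mixed, with 4 of 6 negative. Their summed level overlapped, at 41.2 to 51.2 CPM in scMC38 and 40.2 to 47.0 CPM in controls.

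The genes whose pattern over the 8 libraries lay closest to each chain were found by the mean absolute difference in log2 CPM, each gene set relative to its own control mean, among 10774 tested genes whose mean log2 CPM was 1 or more. The closest to Col6a1 was Loxl2, a lysyl oxidase that cross-links collagen (0.0854), followed by Col6a2 (0.14), Col6a3 (0.16), the fibrillin gene Fbn1 (0.17) and the fibroblast surface gene Thy1 (0.18). Loxl2 fell by 1.16 on the log2 scale (SE 0.18, adjusted p = 0.0299 by edgeR), a call kept only without scMC38 1 when 1 library was left out. The closest to Col6a2 were Col6a1 (0.14), Ssc5d (0.15), Loxl2 (0.16), Col5a3 (0.19) and Fbn1 (0.21).

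The closest to Col6a3 were Dclk1 (0.14), Loxl2, Thy1, Col6a1 and Ift122 (each 0.16). For Col6a6 they were Ky, a muscle peptidase gene (0.16), Fndc1 (0.19), Gprc5c (0.19), the stromal surface gene Cd248 (0.20) and Lgi2 (0.21). Col6a3 was 7th in the order of likeness to Col6a6, against 48th for Col6a1 and 204th for Col6a2. The low-count chain Col6a5 had no neighbour nearer than Gprc5c (0.28). These are descriptions over 8 libraries that share the group difference.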

How the data were processed

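Total RNA of 8 quadriceps was isolated with RNeasy Mini and made into libraries with the Universal Plus mRNA-seq kit, per the labels' protocols. The table as deposited by the authors gives an estimated count per gene and library, with no scaling for depth or length that the values show. Salmon 1.10.3, fastp 1.0.1, R 4.4.3, MultiQC 1.30, FastQC 0.12.1 and the build GRCm39 stand in the submitters' processing notes without their roles. They name no annotation release. Of the nonzero values 49.3% carry a fraction, as they do where reads are divided between similar transcripts, so counts of similar genes are uncertain.

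Of 35667 rows, 144 without a symbol (0.00270% to 0.00403% of a library's counts) were left out, rows of 26 repeated symbols were summed, and estimated counts were rounded. edgeR 4.0.16 (R 4.3.3) was used with its default low-count filter (filterByExpr, counts of 10 and a total of 15), TMM factors and a robust quasi-likelihood test, with Benjamini-Hochberg adjustment over 14112 genes and a threshold of 0.05. DESeq2 1.42.0 was an alternative, and the scripts were tested on simulated data. Log2 CPM used a prior count of 2, and ratios a pseudocount of 0.5. At totals of 50.5 to 62.1 M, spread between mice set the precision (biological coefficient of variation 27.3%). No pair of libraries in a group agreed within counting noise (chi-square per degree of freedom 63.2 to 480).

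All 5 members were named, with at most 4 called genes of each list (at most 2 by smallest p if a list had no call) and the 5 genes most like each member. The members and lists were chosen with earlier results of these data known. Transcript lengths and coding sequences came from GENCODE M21 (GRCm38) and promoters from RefSeq (GRCm38.p6), earlier builds than that of the counts, so the coordinates given are those of promoter windows on GRCm38.p6 only.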

Additional observations from a re-analysis of the deposited data

Results flagged for a closer look

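Among 74 groups of 4 libraries examined for a single library far from the other 3, chance would flag about 1 in 20, and 5 stood out. Mmp9 stood at 232.5 CPM in scMC38 3, where the other scMC38 libraries held 4.18 to 19.6 CPM, and at 5.88 CPM in control 4, where the other controls held 2.78 to 3.04 CPM. Pdgfra stood at 29.4 CPM in control 2, below the 41.9 to 42.5 CPM of the other controls. Plod1 stood at 41.9 CPM in control 2, above the 37.1 to 37.8 CPM of the other controls. Smox, the fourth nearest gene to Col6a5, stood at 998 CPM in control 4, above the 303 to 322 CPM of the other controls. No collagen VI chain was among the 5.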

How the results depend on the processing

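All 5 chains kept a negative log2 fold change in every alternative that gave a value, and Col6a5 had none with a filter of at least 1 CPM in 4 libraries. Of the chains, 2 were called lower by edgeR, against 4 by DESeq2 (Col6a3 at -1.07 and Col6a6 at -0.92 were added), and 1, Col6a2, with scaling by total counts or without a low-count filter (Col6a1 lost its call, at -1.09 and -1.21). None (0) was called without control 1 and control 2 (Col6a1 at -1.39, Col6a2 at -1.58). With 1 library left out the count was between 0 and 2, Col6a1 between -1.42 and -1.06, and Col6a2 between -1.59 and -1.28. Genes called lower and higher were 66 and 104 by edgeR, 585 and 926 by DESeq2, 39 and 25 without scMC38 1 and scMC38 3, 124 and 756 with those as the only tumour libraries (added after seeing the data), and 0 and 0 without control 1 and control 2 (1605 genes at an unadjusted p under 0.05). With 1 library left out they ran between 1 and 52, and between 1 and 59. Scaling by total counts called 216 higher, shifted the median gene by 0.11 (log2) and made 80.9% of calls higher, against 61.2% with TMM, and no filter called 69 higher. The ratio of Col6a5 to Col6a1 changed sign with 1 library left out (-0.17 to 0.38; -0.05 without scMC38 1, -0.17 without scMC38 4, -0.16 without control 1) and without control 1 and control 2 (-0.35). Itga10 changed sign without scMC38 1 and scMC38 3 (-0.28), as did Ppif without control 1 and control 2 (0.19). The causes were not tested. Low counts limit Col6a5.

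Libraries with the same replicate number did not deviate together (correlations between -0.28 and -0.0058). These were not compared with libraries of unlike number, so they cannot decide whether the numbers mark a shared litter, cage or day. With a replicate block, Col6a1 was at -1.25 and Col6a2 at -1.45, with 0 chains called, and 1 gene was called lower and 0 higher in the whole table.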

Other observations

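Adipocyte markers varied widely among controls, and without control 4 their median log2 fold change was 1.29. Their sum over 6 genes was 221, 421, 167 and 132 CPM in scMC38 1 to 4 and 86.2, 54.7, 114 and 700 CPM in control 1 to 4. Control 4, the library with the highest sum, also had the highest CPM of each collagen VI chain among controls. Cfd, an adipocyte serine protease gene and the most abundant of the list, averaged 160 ± 91.7 CPM in scMC38 and 156 ± 206 CPM in controls (SD, n = 4 each). Without control 4 the log2 fold change of Col6a3 was -0.87 and that of Col6a6 was -0.74.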
